A study of Mus musculus with 16 samples.

Results

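The arrays described here covered the time before the major wave of embryonic genome activation in the mouse, and asked how oocytes and embryos obtained by superovulation differed in RNA from those of natural cycles. They were the 6 arrays of the series labelled MII oocyte, 1-cell and early 2-cell, of 16 in all, with 1 superovulated and 1 natural-cycle array at each stage. Superovulated material came from B6C3F1 females given 10 IU PMSG and, 48 h later, 10 IU hCG, in 4 collection runs that yielded 3096 oocytes and embryos over all 8 stages. Natural-cycle material came from B6C3F1 females without gonadotrophins, in 9 runs that yielded 989. Embryos on both sides were sired by CD1 males and cultured with an intact zona in KSOM(aa) at 37 °C and 5% CO2. Each array received a subvolume equal to 20 oocytes or embryos out of a lysate pooled by stage, and no stage had a second array of either kind. At MII the superovulated donors were unmated and the natural-cycle donors had been mated to vasectomized males, so that mating and stimulation cannot be told apart in the MII pair.

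PMSG acts like follicle-stimulating hormone and lets many follicles grow at once, and hCG acts like luteinizing hormone and triggers ovulation. Granulosa and cumulus cells answer the ovulatory signal with prostaglandin, hyaluronan-binding, inhibin and steroidogenic genes, and the cumulus cells stay attached to the ovulated oocyte until they are stripped off. The oocyte itself is nearly silent in transcription from the end of its growth until the minor wave of activation in the zygote. In that interval stored maternal transcripts are translated, shortened or lengthened in their poly(A) tails, and degraded.

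Of the 72688 rows in the deposited table, 30638 carried exactly 1 gene symbol, stood for 30176 genes and were tested. Values are log2 signals, relative to the other rows of the same array, so a difference in total RNA for each oocyte would not show. The column medians of the 6 arrays lay between 4.39 and 4.5, and a level of silent genes, the 95th percentile of 1755 olfactory, vomeronasal and taste receptor rows, lay between 5.05 and 5.25. In all, 11987 rows were above it on all 6 arrays. All 11 oocyte markers (among them Zp1, Zp2, Zp3, Gdf9 and Mos) were above that level on every array, with a median signal of 15.73 on the superovulated and 15.51 on the natural-cycle MII array. Alas2 (blood), Ptprc and Lyz2 (immune cells), Pax8 and Krt19 (oviduct) and Prm1, Tnp1, Tnp2 and Odf1 (sperm) were below it on all 6 arrays. Other markers of these cell types were not. Cd68 (immune cells), Epcam (oviduct) and Prm2 (sperm) were above it on all 6 arrays, Ovgp1 (oviduct) on 5 and S100a9 (immune cells) on 1.

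No gene passed the test over the 3 pairs. The superovulation difference averaged over MII, 1-cell and early 2-cell was called in 0 of 30638 rows (0%) by limma after Benjamini-Hochberg adjustment, and the lowest adjusted p was 0.0822. Before adjustment 3071 rows (10.0%) had a p under 0.05, of which 1581 (5.16%) were higher and 1490 (4.86%) lower on the superovulated side. Among the rows above the level of silent genes on all 6 arrays those shares were 8.13% and 9.3%. The test of a difference between these 3 stages and the 5 later ones called 0 rows as well, with 1905 rows under an unadjusted p of 0.05. In simulated arrays of the same design limma called 13 of 66 genes that differed by 1 on the log2 scale, 48 of 67 that differed by 2 and 65 of 67 that differed by 3. It also called 6 rows that were given no difference. The changed genes were drawn from rows above the median signal and the noise was independent and normal, so dim rows and array effects were not covered. With 3 pairs an exact sign-flip test of a single gene cannot go below a two-sided p of 0.25. The values below are therefore measured differences between single arrays, none of which passed a test across all genes.

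The 3 pairs differed in how many rows stood apart, and the balance of directions at 1-cell and early 2-cell turned with the scaling. At MII 542 rows (1.77%) were at least 2-fold higher and 83 (0.271%) at least 2-fold lower on the superovulated array, and after quantile normalization 578 and 156. In the 1-cell pair 963 rows (3.14%) were at least 2-fold higher and 1101 (3.59%) at least 2-fold lower, whereas cyclic loess gave 1013 higher and 1004 lower and quantile normalization 1178 and 1089. In the early 2-cell pair the counts were 474 (1.55%) and 729 (2.38%), and 636 and 582 after quantile normalization. The lower and upper quartiles of all rows lay at -0.17 and 0.16 on the log2 scale at MII, -0.22 and 0.22 at 1-cell, and -0.20 and 0.22 at early 2-cell. The 4 hybridization control rows lay 0.13 to 0.31 higher on the superovulated array at MII, 0.33 to 0.61 at 1-cell and 0.00 to 0.19 at early 2-cell, and their part in these counts was not tested.

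Differences of neighbouring stages resembled each other more than those of MII and early 2-cell did. Across the 11987 rows above the level of silent genes, the difference at MII and that at 1-cell had a Pearson correlation of 0.57 (Spearman 0.56), 1-cell and early 2-cell one of 0.44 (0.43), and MII and early 2-cell one of 0.12 (0.15). These are correlations across genes of single arrays, and genes are not independent replicates. In all, 5508 rows (18.0%) were higher and 5254 rows (17.1%) lower on the superovulated array at all 3 stages.

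**Figure D1:**
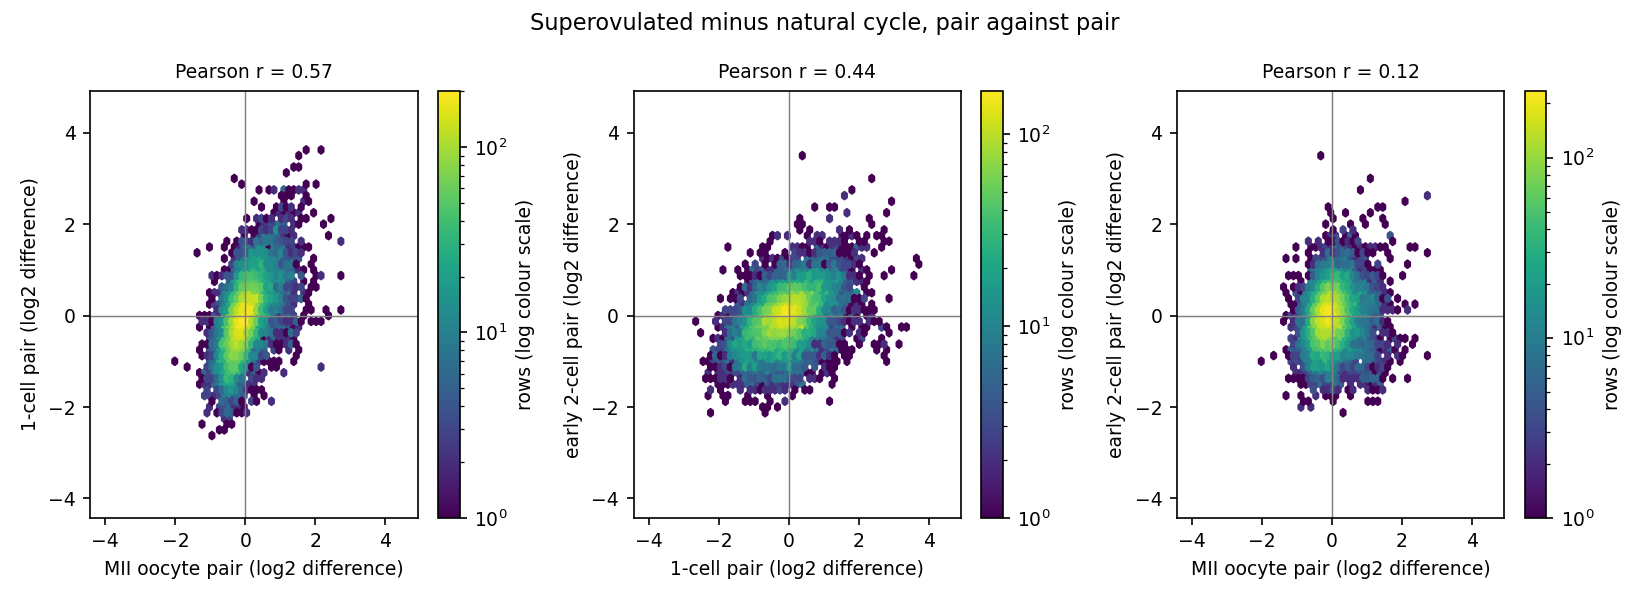
Log2 difference (superovulated minus natural cycle) in one pair of arrays against that in another, for the 11987 rows above the level of silent genes on all 6 arrays. Each hexagon is coloured by its number of rows on a log scale. The cloud is tilted for MII against 1-cell (r = 0.57) and nearly round for MII against early 2-cell (r = 0.12).

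At least 2-fold higher on the superovulated array in all 3 pairs were 36 rows (0.118% of those tested), and at least 2-fold lower in all 3 were 11 rows (0.0359%). Leaving out predicted, clone and non-coding family names, these were 18 genes on the higher and 6 on the lower side. They were singled out by these very values, so their differences are a description. Adjusted p-values ran from 0.0822 to 0.437 for the 36 rows and from 0.237 to 0.406 for the 11 rows. Lalba stood just inside the limit with a smallest difference of 1.01 and Tuba1c just outside it with 1.00. On the lower side Pdhb stood inside with -1.0 and Phf5a outside with -0.99.

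Echdc3, which encodes a mitochondrial protein of the enoyl-CoA hydratase family, was the symbol with the lowest adjusted p after the pseudogene Gm9658. Its signal was 12.01, 11.40 and 8.66 on the superovulated MII, 1-cell and early 2-cell arrays, against 10.30, 8.89 and 6.89 on the natural-cycle arrays. The mean difference was 2.00 ± 0.25 (adjusted p = 0.129 by limma), or 3.99-fold. The value after ± is, here and below, the standard error of the limma fit. That fit drew its variance from early and later stages together, so the error is not the spread between the 3 pairs. For Echdc3 the superovulated array was the higher one at every stage while the signal on both sides was lower at early 2-cell than at MII. Gm9658 had 6.97, 6.36 and 6.08 on the superovulated arrays, against 5.86, 4.93 and 4.58, with a mean difference of 1.35 ± 0.15 (adjusted p = 0.0822). Its natural-cycle values at 1-cell and early 2-cell were below the level of silent genes on those arrays (5.16 and 5.22). The size of these 2 gaps is therefore not a measured ratio of RNA.

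Fam222a, a gene of poorly known function, showed the widest gap of the 1-cell pair. Its signal was 11.20, 10.64 and 7.97 on the superovulated arrays, against 9.07, 6.95 and 6.81 on the natural-cycle arrays in the order MII, 1-cell and early 2-cell, used for all such triplets below. At 1-cell this was a 12.9-fold difference, and the mean difference was 2.33 ± 0.39 (adjusted p = 0.237). On the natural-cycle side most of the drop in signal lay between MII and 1-cell, and on the superovulated side between 1-cell and early 2-cell. Ccdc201, annotated here as a long non-coding RNA, read 13.92, 13.83 and 9.49 on the superovulated arrays, against 12.78, 11.03 and 7.21. It differed 6.98-fold at 1-cell and 4.87-fold at early 2-cell.

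Cited2, a CBP/p300-binding transcriptional regulator, was among the brightest of these genes. It read 16.56, 16.32 and 11.68 on the superovulated arrays, against 15.04, 14.08 and 9.60 on the natural-cycle arrays, a mean difference of 1.95 ± 0.56 (adjusted p = 0.338). Gpx3, a secreted glutathione peroxidase, read 10.43, 10.61 and 10.17 against 9.22, 8.43 and 8.71. Its signal on the superovulated side hardly differed between stages, and the 1-cell pair was 4.52-fold apart. Babam1, a subunit of the BRCA1-A and BRISC complexes, read 14.31, 13.87 and 10.5 on the superovulated arrays, against 12.75, 11.88 and 9.00. Ube2j1, an ubiquitin-conjugating enzyme of the endoplasmic reticulum, read 12.05, 11.36 and 10.38, against 10.96, 9.28 and 8.89. The other protein-coding members with a bright signal were Miox (myo-inositol oxygenase, mean difference 1.28), Ift22 (a subunit of the intraflagellar transport machinery, 1.25), Rab1b (a GTPase of traffic between endoplasmic reticulum and Golgi, 1.24), Aspscr1 (a tether of glucose transporter vesicles, 1.53) and Bcar1 (an adhesion adaptor, 1.21). Lalba, the alpha-lactalbumin gene, differed by 1.14 on average and was below the level of silent genes on the natural-cycle early 2-cell array only.

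The 6 genes on the lower side had other roles. Faim, an inhibitor of Fas-mediated apoptosis, read 7.50, 7.51 and 8.19 on the superovulated arrays, against 8.75, 9.85 and 9.95 on the natural-cycle arrays, a mean difference of -1.78 ± 0.39 (adjusted p = 0.285). Riox1, a ribosomal oxygenase, read 5.58, 7.30 and 10.47, against 7.60, 8.32 and 11.49. Its signal was higher at each later stage on both sides, and the gap was widest at MII, where it was 4.07-fold. Nup107, a scaffold nucleoporin, differed by -1.37, Psmd12, a lid subunit of the proteasome, by -1.26, Pdhb, a subunit of pyruvate dehydrogenase, by -1.15, and the cytochrome P450 gene Cyp2j12 by -1.31 on average.

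**Figure D2:**
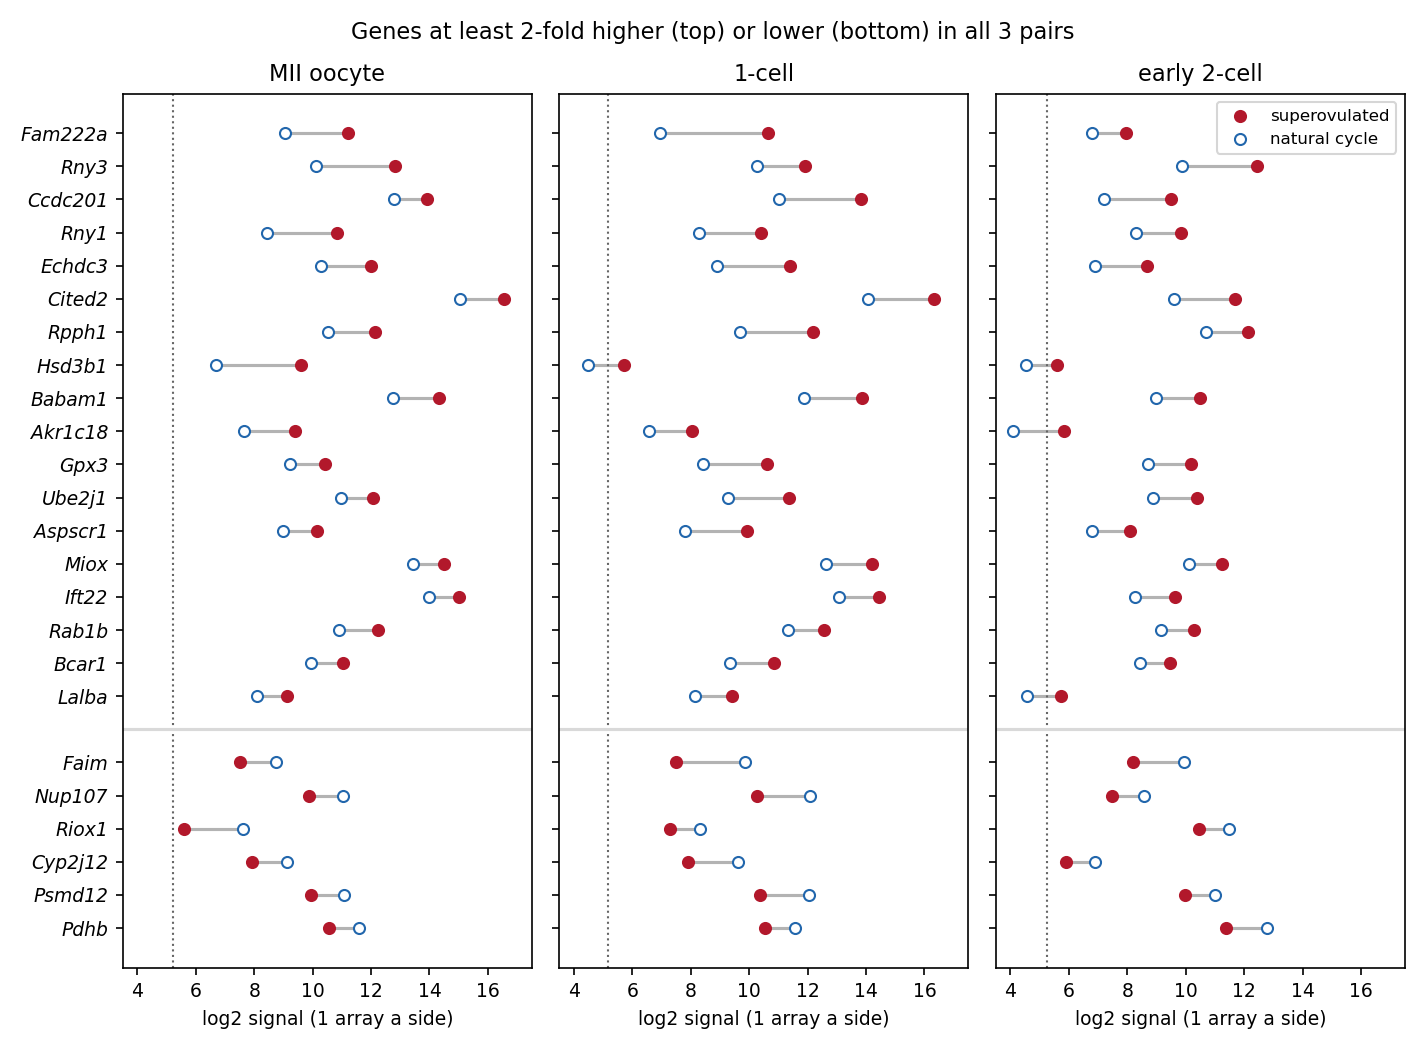
Log2 signal of the 18 genes at least 2-fold higher (top) and the 6 genes at least 2-fold lower (bottom) on the superovulated array in all 3 pairs, 1 panel a stage. Filled red points are superovulated arrays, open blue points natural-cycle arrays, each a single array, and the dotted line is the higher of the 2 arrays' levels of silent genes. The genes were chosen by these gaps, from 1.01 (Lalba at MII) to 3.69 (Fam222a at 1-cell) on the higher side.

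Small structural RNAs were among the genes 2-fold higher in all 3 pairs. Rpph1, the RNA of ribonuclease P, which trims the 5′ end of tRNAs, read 12.13, 12.19 and 12.13 on the superovulated arrays, against 10.52, 9.70 and 10.71 on the natural-cycle arrays. Rny3, a Y RNA that binds the Ro60 protein and has 2 rows of equal value, read 12.83, 11.90 and 12.45, against 10.13, 10.27 and 9.87. Rny1, the other mouse Y RNA, read 10.82, 10.40 and 9.84, against 8.43, 8.28 and 8.29. For each of these RNAs all superovulated values lay above all natural-cycle values. The mean differences were 1.84 ± 0.44, 2.31 ± 0.61 and 2.02 ± 0.59 (adjusted p = 0.316, 0.322 and 0.341). Over the later stages the mean differences were 1.69 for Rpph1, 1.23 for Rny1 and 0.06 for Rny3.

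Other members of the list of small structural RNAs lay on both sides, though none of those tested was 2-fold lower in any pair. This did not hold for all small nuclear RNAs. Of 928 tested rows annotated as such, 1, 6 and 30 were at least 2-fold lower at MII, 1-cell and early 2-cell, and 21, 42 and 13 at least 2-fold higher. Of 21 tested members of the list of small structural RNAs, 6 were higher and 1 lower at an unadjusted p under 0.05, against 5.16% and 4.86% of all rows. Snord13, a box C/D RNA used in 18S rRNA processing, read 11.69, 11.98 and 13.40 on the superovulated arrays, against 10.02, 8.33 and 12.14. Snord118, the U8 RNA, was higher by 0.87, 1.2 and 1.35 in the 3 pairs. Rn7sk, the abundant 7SK RNA, read 18.79, 18.88 and 19.03, against 18.22, 18.80 and 19.09, and Scarna17 was lower at all 3 stages by -0.27, -0.96 and -0.75. Rmrp was above the level of silent genes on the superovulated MII array only. At least 2-fold higher were 4 members at MII, 5 at 1-cell and 8 at early 2-cell (beside 1.77%, 3.14% and 1.55% of all rows), and 0 were at least 2-fold lower. The list median was 0.55 at MII, 0.18 at 1-cell and -0.04 at early 2-cell, beside -0.01, 0.00 and 0.02 over all tested rows.

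Genes of granulosa and cumulus cells stood farthest apart at MII. Thbs1, thrombospondin 1 of the follicle wall, gave the widest gap of the MII pair. It read 12.89 on the superovulated and 8.51 on the natural-cycle MII array, a 20.8-fold difference. Inha, the alpha subunit of inhibin, read 11.94 against 8.12, a 14.2-fold difference. Cyp11a1, the side-chain cleavage enzyme that opens steroid synthesis, read 9.04 against 6.12. Hsd3b1, the enzyme for the next step to progesterone, read 9.60 against 6.70. Tnfaip6, which crosslinks hyaluronan in the expanding cumulus matrix, read 9.88 against 7.10, Ptgs2, the inducible prostaglandin synthase, 9.40 against 7.41, and Fst, the activin antagonist follistatin, 7.88 against 5.51. All 7 were above the level of silent genes on both MII arrays and at least 3.97-fold apart.

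At 1-cell the signal of each of these genes was below its MII value on both sides. Cyp11a1 read 6.17 on the superovulated and 4.72 on the natural-cycle array, a 2.73-fold difference, and Hsd3b1 5.72 against 4.47, a 2.37-fold difference. Inha read 5.42 against 4.47 and Ptgs2 5.56 against 4.86. These 4 genes were above the level of silent genes on the superovulated 1-cell array only, Tnfaip6 on both (5.85 against 5.78), and Thbs1 (4.97 against 4.58) and Fst (4.66 against 4.30) on neither. Akr1c18, a progesterone-inactivating enzyme of the ovary, read 8.04 against 6.58. At early 2-cell Inha read 7.17 against 4.32 and Thbs1 6.46 against 4.31, so both were above the level of silent genes on the superovulated array only. Tnfaip6 ran the other way there, with 5.72 against 6.60. The mean differences over the 3 pairs were 2.55 ± 0.53 for Inha (adjusted p = 0.282), 2.31 ± 0.63 for Thbs1 (adjusted p = 0.324), 1.08 ± 0.23 for Ptgs2 (adjusted p = 0.284) and 0.66 ± 0.50 for Tnfaip6 (adjusted p = 0.754). The single pairs differed by 3.83, 0.96 and 2.85 for Inha and by 4.38, 0.40 and 2.15 for Thbs1. For Ptgs2 they differed by 1.99, 0.70 and 0.55, and for Tnfaip6 by 2.78, 0.07 and -0.87. Without the MII pair the mean of Tnfaip6 was -0.40.

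**Figure D3:**
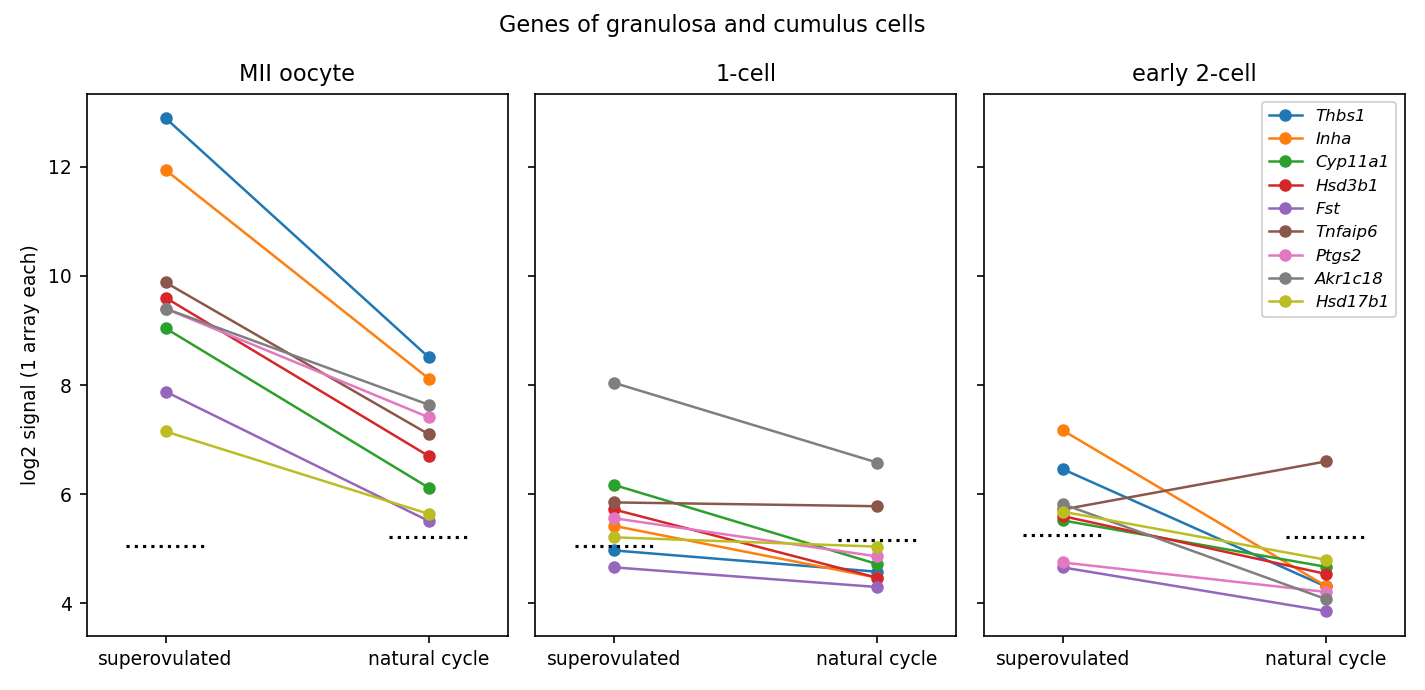
Log2 signal of 9 genes of granulosa and cumulus cells on the superovulated (left) and natural-cycle (right) array of each stage, 1 line a gene and 1 array a point, with dotted marks at each array's level of silent genes. At MII all 9 lines run down from the superovulated array, Thbs1 by 4.38 and Inha by 3.83. At early 2-cell Tnfaip6 runs up.

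In the list of granulosa and steroidogenic genes 9 of 28 tested members had an unadjusted p under 0.05 and were higher, 0 were lower, and none passed the adjustment, beside 5.16% higher and 4.86% lower among all tested rows. At MII 23 members lay above and 5 below their natural-cycle value, beside 15036 above and 15591 below among all 30638 rows. In that pair 7 members were at least 2-fold higher and 0 at least 2-fold lower, beside 1.77% and 0.271% of all rows. The list median was 0.33 at MII, 0.09 at 1-cell and 0.13 at early 2-cell. In the list of ovulation and cumulus expansion genes 5 of 22 were higher and 0 lower at an unadjusted p under 0.05, with medians of 0.25, 0.05 and 0.11. The 15 cumulus and granulosa markers that were tested summed to 96.5 log2 units on the superovulated and 80.3 on the natural-cycle MII array, and 10 against 7 of them were above the level of silent genes. Inhba, at 5.06 against 5.08, counted on the superovulated side alone because each array had its own level (5.05 and 5.21). The widest gaps were those of Inha, Cyp11a1, Tnfaip6, Fst and Ptgs2, named above, and a sum of log2 values is not an amount of RNA. At 1-cell the sums were 70.8 and 67.4, with 5 against 3 markers above that level, and at early 2-cell 74.8 and 70.0, again with 5 against 3. Amhr2 read 8.28 and 8.30 on the superovulated and natural-cycle early 2-cell arrays, against 4.95 and 5.33 at 1-cell. It thus added to both early 2-cell sums and counts, and the cause of its higher signal there was not tested. Star, Fshr, Foxl2, Gatm and Ptx3 were below the level of silent genes on all 6 arrays, and Has2 differed by at most 0.14. The number of follicle cells that entered the lysates is not known, so that more such cells and more RNA in each cannot be told apart.

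Among genes that mark the other cell types, those above the level of silent genes showed no gap as wide. Krt8 (keratin 8, read with the oviduct list) was higher by 0.86, 0.84 and 0.04, Ovgp1 (oviductal glycoprotein) by 0.20, 0.12 and -0.01, and Epcam differed by -0.22, 0.08 and -0.72. Cd68 (macrophages) differed by -0.38, 0.17 and -0.77, S100a9 by 0.11, -0.10 and 0.30, and Prm2 (protamine 2 of sperm) by 0.11, 0.03 and -0.83. In the list of 23 oviduct, blood and immune markers, 0 members had an unadjusted p under 0.05. The same held for 0 of 14 sperm and testis genes and 0 of 8 Y-linked genes, beside 5.16% higher and 4.86% lower among all rows. Only 7, 3 and 5 members of these lists were above the level of silent genes on any array, so most could show no difference. The haemoglobin genes were not tested, which left Alas2 for blood. The list medians lay between -0.04 and 0.08 at every stage.

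The oocyte's own abundant transcripts held both flat and separated members. The 11 oocyte markers differed by -0.20 (Nlrp5) to 1.08 (Ooep) at MII, -0.61 (Oosp1) to 1.61 (Mos) at 1-cell and -0.52 (Oosp1) to 2.29 (Mos) at early 2-cell, and Zp3 was 0.90 higher at 1-cell. Bmp15, a growth factor of the oocyte, differed by -0.13, -0.22 and -0.14, Zp2, of the egg coat, by 0.05, 0.03 and -0.20, and Obox1, an oocyte homeobox gene, by 0.15, 0.21 and 0.14. Wee2, the kinase that holds CDK1 inactive during the exit from meiosis, differed by -0.12, -0.13 and 0.03. The medians of the zona pellucida list (15 genes) were 0.05, 0.03 and 0.21, and those of the subcortical maternal complex and Nlrp list (17 genes) 0.08, -0.15 and 0.30. At 1-cell 2 members of the Nlrp list were at least 2-fold higher and 2 at least 2-fold lower. Of the 11987 rows above the level of silent genes on all 6 arrays, 847 and 1022 were so. Among the genes with an unadjusted p under 0.05 were Mos, the kinase of MII arrest, which read 14.62, 11.89 and 8.22 on the superovulated arrays, against 14.23, 10.28 and 5.93. The gap of Mos was wider at each later stage while both sides lost signal. Astl (ovastacin, which hardens the zona) was higher by 0.64, 1.73 and 0.40, and Tle6, of the subcortical maternal complex, by 0.62, 1.77 and 1.18. Dazl, an RNA-binding protein that promotes translation in the oocyte, was lower by -0.47, -1.69 and -0.51. None of these passed the adjustment.

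Nobox, a homeobox factor of oocyte growth, and Zar1l and Ooep, maternal genes of stored RNA and of the subcortical complex, were higher in all 3 pairs. They were picked after their values were seen. Of the other oocyte markers Zp1, Zp3, Gdf9 and Mos were also higher in all 3 pairs, and Bmp15 and Oosp1 were lower in all 3. Zp2, Nlrp5, Padi6 and Zar1 differed in sign between pairs. Nobox read 14.54, 14.51 and 11.56 on the superovulated arrays, against 13.65, 13.76 and 10.11 on the natural-cycle arrays, a mean difference of 1.03 ± 0.28 (adjusted p = 0.323). Zar1l read 15.52, 16.27 and 12.30, against 14.36, 15.17 and 11.39, and Ooep 10.49, 11.33 and 9.27, against 9.41, 10.49 and 8.61. The mean differences were 1.06 ± 0.27 and 0.86 ± 0.23 (adjusted p = 0.316 and 0.324). The stretch from 220 to 91 bases upstream of the start of both genes is shown because each holds the letters of the Nobox element (TAATTG, searched on both strands, in capitals here, on these strands as its reverse complement). Sequences are from RefSeq, GRCm38.p6, minus strand, written 5′ to 3′, chr5:150518250-150518379 for Zar1l and chr9:78378679-78378808 for Ooep.
Zar1l: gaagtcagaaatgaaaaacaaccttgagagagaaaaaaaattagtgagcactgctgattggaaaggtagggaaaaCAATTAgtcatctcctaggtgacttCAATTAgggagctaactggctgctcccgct
Ooep: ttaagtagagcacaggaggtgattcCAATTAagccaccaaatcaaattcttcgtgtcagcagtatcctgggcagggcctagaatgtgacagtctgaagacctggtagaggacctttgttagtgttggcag
The element began 145 and 120 bases upstream of the start in Zar1l and 195 bases upstream in Ooep. Of 17972 tested genes with a RefSeq promoter window (250 bases before to 50 after the start) 8.13% held it, as did 0 of 15 genes at least 2-fold higher and 0 of 6 genes at least 2-fold lower in all 3 pairs. The full cAMP response element (TGACGTCA) was in 2.48% of the windows and in none of those 15 and 6. A match describes letters and is no evidence of binding.

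The 1-cell pair had the widest spread. Of the 4 widest gaps in each direction among genes with established names, those of Fam222a, Ccdc201 and Faim were also over 2-fold at MII, and the other 5 were under 2-fold there. H2ax, the histone variant of DNA damage signalling, read 11.57, 11.80 and 11.50 on the superovulated arrays, against 11.90, 8.87 and 10.49 on the natural-cycle arrays. Its 1-cell pair was 7.62-fold apart and its early 2-cell pair 2.02-fold, and at MII it was slightly lower on the superovulated array. Castor1, the arginine sensor upstream of mTORC1, read 9.94, 10.38 and 10.20, against 9.55, 7.62 and 8.34, a mean difference of 1.67 ± 0.40 (adjusted p = 0.316). On the superovulated side its signal hardly differed between stages. At the lower end Znhit6, a factor of snoRNP assembly, read 6.92, 7.54 and 9.16, against 7.54, 9.78 and 11.22, Tsn (translin, an RNA-binding nuclease subunit) differed by -0.56, -2.22 and -1.10, and Pigf (of GPI anchor synthesis) by -0.49, -2.20 and -0.91.

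Kinetochore genes leaned to the lower side, most of all at 1-cell. Of 32 tested genes of the kinetochore and spindle checkpoint, 10 were lower and 2 higher at an unadjusted p under 0.05, beside 9.3% lower and 8.13% higher among all rows above the level of silent genes. At 1-cell 9 were at least 2-fold lower and 3 at least 2-fold higher, beside 1022 and 847 of the 11987 rows above the level of silent genes. The list medians were -0.17, -0.42 and -0.22. Nuf2, which binds microtubules as part of the Ndc80 complex, read 10.65, 10.84 and 11.54 on the superovulated arrays, against 11.20, 12.68 and 12.38. Cenph read 10.36, 10.46 and 10.99, against 10.86, 12.49 and 11.46, and Mis12, which links the centromere to the outer kinetochore, 9.69, 9.89 and 11.17, against 10.63, 11.43 and 11.84. The natural-cycle signal of all 3 genes was higher at 1-cell than at MII, while the superovulated signal was nearly the same at those stages. Cenpm ran the other way and read 12.76, 11.92 and 6.91, against 11.91, 10.17 and 6.31. The mean differences were -1.08 ± 0.32 for Nuf2, -1.05 ± 0.34 for Mis12 and 1.07 ± 0.28 for Cenpm (adjusted p = 0.342, 0.364 and 0.319).

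Writers and erasers of histone lysine methylation leaned to the higher side. Of 31 tested, 6 were higher and 2 lower at an unadjusted p under 0.05, beside 8.13% and 9.3% of the rows above the level of silent genes, and the medians were 0.07, 0.22 and 0.13. Kdm6b, an H3K27 demethylase, read 12.11, 12.17 and 11.38 on the superovulated arrays, against 11.43, 10.52 and 10.25. Kmt2b, an H3K4 methyltransferase that the growing oocyte needs, read 10.82, 10.95 and 10.23, against 10.29, 9.24 and 9.28. The other H3K4 methyltransferases Setd1b, Kmt2d and Setd1a were higher by 0.49, 0.46 and 0.42 at MII, 1.49, 1.17 and 0.97 at 1-cell, and 0.72, 0.89 and 0.74 at early 2-cell. Dot1l, the H3K79 methyltransferase, was higher by 0.17, 0.68 and 1.02. Suz12 of the Polycomb complex differed by 0.03, -0.99 and -0.70, and Suv39h2, an H3K9 methyltransferase, by -0.38, -0.85 and -0.39. Adjusted p-values of these 8 genes lay between 0.320 and 0.487.

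Proteasome and fuel genes held members on both sides. The counts at an unadjusted p under 0.05 in this paragraph stand beside 8.13% higher and 9.3% lower among rows above the level of silent genes. Of 31 proteasome subunits 6 were lower and 2 higher at an unadjusted p under 0.05, with medians of -0.05, -0.52 and -0.29. Psmc1, an ATPase of the base, was lower by -0.96, -0.79 and -0.95, whereas Psmb2, a core subunit, was higher by 0.59, 0.79 and 0.84. In ribosome biogenesis, the nucleolar genes, 4 of 32 were lower, a share near that of all such rows, and 0 higher, with medians of -0.18, -0.14 and -0.46, and Nop58, a core box C/D snoRNP protein, differed by -0.07, -1.73 and -1.68. Both subunits of the E1 enzyme of pyruvate dehydrogenase were lower. Pdha1 read 7.35, 8.25 and 7.60 on the superovulated arrays, against 8.19, 9.44 and 9.14, and Pdhb 10.57, 10.54 and 11.37, against 11.57, 11.57 and 12.80. Ogdh and Mdh2, later in the cycle, were higher at 1-cell by 1.47 and 1.12. Among the 43 nuclear genes of oxidative phosphorylation 7 were higher and 3 lower, with Cox6a1 (1.19, 2.23 and 0.48) and Cox6b1 (1.73, 2.18 and 0.10) on the one side and Cox8a (-0.29, -1.78 and -0.32) on the other. Of 5 tested mitochondrially encoded genes COX1, COX2 and ND3 were lower (mean differences of -0.44, -0.95 and -0.58) and ND2 higher (0.47).

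The tested ribosomal protein genes stood on opposite sides at MII and early 2-cell. They were 26 of the 57 in the list, since the others had no row with exactly 1 symbol. At MII 23 of 26 were higher on the superovulated array, with a median of 0.49. At early 2-cell 25 of 26 were lower, with a median of -0.59, while at 1-cell 14 were higher and 12 lower (median 0.06). Of the 11987 rows above the level of silent genes on all 6 arrays, 5445 were higher at MII and 6208 lower at early 2-cell. Rpl35 had 2 rows, 1 of which read 1.03 higher at MII and differed by -1.43 at early 2-cell. The other read 1.21 higher at MII and differed by -1.025 at early 2-cell. Rows named for pseudogenes went along with them. Pseudogenes were 14.0% of all tested rows, 50.7% of those at least 2-fold higher at MII and 43.3% of those at least 2-fold lower at early 2-cell, and the median over 1992 pseudogene rows above the level of silent genes was 0.17, 0.10 and -0.29. Over 8684 such protein-coding rows it was -0.08, -0.08 and 0.02. A processed pseudogene can share sequence with its parent mRNA, so the 2 cannot be told apart on an array. The list's median over the 3-pair means was -0.03.

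**Figure D4:**
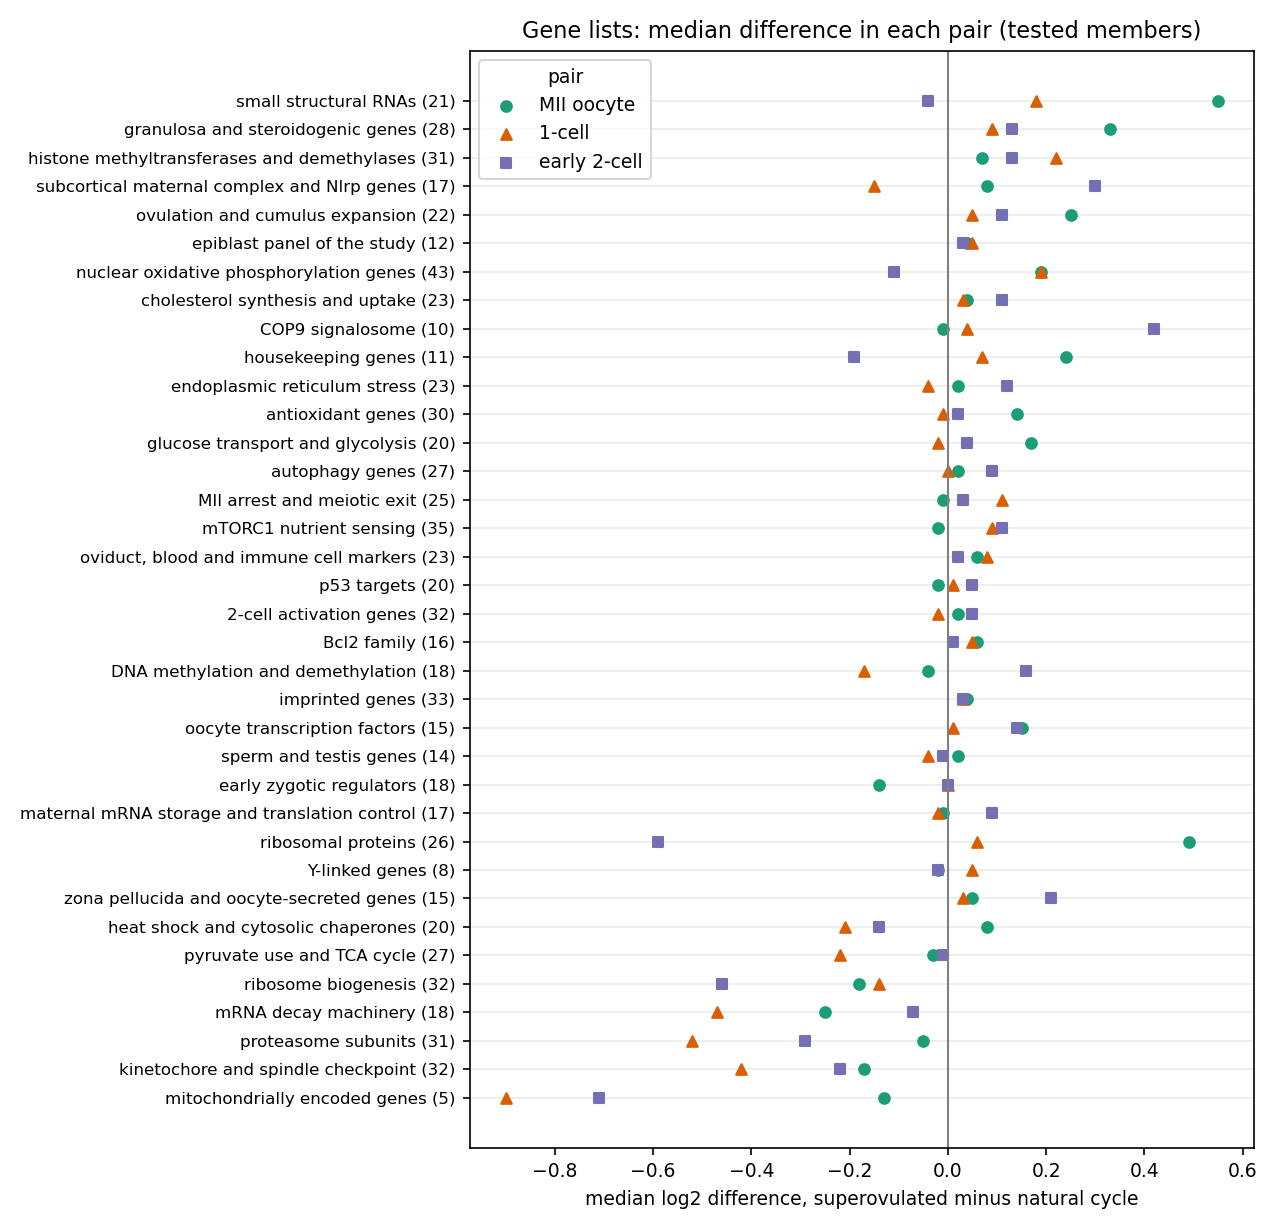
Median log2 difference (superovulated minus natural cycle) over the tested members of each of 36 gene lists, with the number of members in parentheses, for the MII (circles), 1-cell (triangles) and early 2-cell (squares) pair. The median over all tested rows was -0.01, 0.00 and 0.02. Ribosomal proteins run from 0.49 at MII to -0.59 at early 2-cell, and kinetochore genes are below 0 in all 3 pairs.

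The genes that open the 2-cell programme lay close on both sides. Of 32 tested 2-cell activation genes 2 were higher and 2 lower at an unadjusted p under 0.05 (5.16% and 4.86% of all rows). The medians were 0.02, -0.02 and 0.05. At early 2-cell 1 was at least 2-fold higher and 1 at least 2-fold lower (1.55% and 2.38% of all rows). Usp17lc, a deubiquitinase of the burst, read 6.73, 7.07 and 15.07 on the superovulated arrays, against 6.09, 6.83 and 13.88 on the natural-cycle arrays. Zscan4a, of the telomere-related Zscan4 cluster, differed by 0.25 at early 2-cell, and near-identical copies in both families mean that the signal of one row may come from several genes. Among the extremes of the early 2-cell pair Prr5, of mTOR complex 2, read 12.33 against 10.01. Cr2 (complement receptor 2), Cypt12, Tspan6 (a tetraspanin) and Tex16 (the wider of its 2 rows, as for Cr2) read 3.94, 4.91, 4.61 and 4.81 on the superovulated array, each below its level of silent genes, against 6.51, 7.33, 6.81 and 6.88 on the natural-cycle array. The fatty acid desaturase Fads2 read 5.94 against 3.37 in 1 of its 2 rows and 6.39 against 5.21 in the other.

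The COP9 signalosome, whose subunit Cops3 the study followed, had 4 of 10 subunits higher and 2 lower in all 3 pairs, beside 18.0% and 17.1% of all rows. All 10 were above the level of silent genes on all 6 arrays. Of the 11987 such rows 2322 were higher and 3088 lower in all 3 pairs. Cops3 was higher by 0.12, 0.55 and 0.91. Cops8 read 14.77, 15.17 and 11.98 on the superovulated arrays, against 14.20, 14.17 and 10.76, and Cops9 differed by -0.78, -1.14 and -0.36. Of the other 11 epiblast genes of the study's panel Sall4 differed by -0.14, 1.13 and 1.16 and Pou5f1 by -0.04, -0.27 and 0.05. The following counts at an unadjusted p under 0.05 stand beside 5.16% higher and 4.86% lower among all rows. Among rows above the level of silent genes on all 6 arrays, as were 17 of the 18 DNA methylation genes, the shares were 8.13% and 9.3%. In the endoplasmic reticulum list 0 of 23 were higher and 1 (Dnajc3) lower, in the chaperone list 1 of 20 (Hspa8) was higher, in the p53 list 2 of 20 were higher and 1 lower, and in the Bcl2 family 0 of 16 passed either way. Of 33 imprinted genes 0 passed and the list medians were 0.04, 0.03 and 0.03. Of 18 genes of DNA methylation 3 were lower, Hells, a chromatin remodeller needed for methylation, by -0.43, -1.71 and -0.60.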

How the data were processed

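The deposited table held log2 signals in 16 array columns, which were used as given and mapped to samples by title. The submitters' processing notes name Affymetrix Expression Console. SST-RMA and analysis of variance are stated for other arrays of the study and not expressly for these, and the build of the array annotation is not given in the sources used here. RNA was not replicated within stage and side, so p-values measure how far stage differences vary. Rows were named through the platform annotation and the RefSeq table of GRCm38.p6, which held 29849 of 30176 genes, and was used for names and printed promoter sequences. The 186 control rows, 2176 rows with several symbols and 39688 with none were left out. limma 3.58.1 (R 4.3.3) fitted stage, with separate stimulation terms for MII to early 2-cell and for the later stages, on all 16 arrays (6 residual and 4.52 prior degrees of freedom, mean-variance trend), after a check on simulated data. P-values were adjusted by Benjamini-Hochberg over all tested rows and called below 0.05. The median standard error was 0.182 log2, and the number of arrays limits the precision.

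The 36 gene lists, the pairs and the naming rule were chosen with earlier results of these data known. The rule named the 4 widest gaps in each direction in each pair, up to 4 members of each list by signal and markers of other cell types above the level of silent genes. It passed over predicted, clone and non-coding family symbols. All other genes named, and the limit of 2-fold in all 3 pairs, were chosen after their values were seen. For a gene with several rows the brightest stood for it in lists. Alternatives covered scaling, moderation, weights, filters, stage windows and leaving out each pair.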

Additional observations from a re-analysis of the deposited data

Results flagged for a closer look

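Among 157 genes followed through all settings, 1 stood on one side in all 3 early pairs and on the other in all 5 later pairs. Atp5d, the delta subunit of ATP synthase, was higher by 0.45 on average over MII, 1-cell and early 2-cell and averaged -0.44 from late 2-cell to blastocyst. The test of that difference gave an adjusted p of 0.719 in limma, so the difference was not called, and its cause was not tested.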

How the results depend on the processing

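The count of 0 rows called over the 3 pairs became 1 with 3 windows of stages, and 2 after centring on brighter rows, 2 among rows above the median level and 2 with array weights. The row called in all 4 of these settings was Gm9658 (adjusted p = 0.0376, 0.0221, 0.0301 and 0.0251), and Echdc3 was called in the last 3 (adjusted p = 0.0145, 0.0444 and 0.0454). It stayed at 0 in the other settings, and at 0 without each stage pair in turn. The count for early against later stages was 0 in every setting run. No setting called more than 2 rows. A limit of 1.5-fold in place of 2-fold gave 2511, 5510 and 4558 rows at MII, 1-cell and early 2-cell (main 625, 2064 and 1203), and a limit of 4-fold 31, 120 and 47. Quantile normalization gave 7 rows in place of 11 that were 2-fold lower in all 3 pairs, a setting chosen after seeing the data, and at early 2-cell 52.2% of the 2-fold rows were then higher, in place of 39.4%. At 1-cell that share was 52.0%, in place of 46.7%. Of 2185 values of 157 genes under other settings 2 had the other sign, Mapk1ip1 without the MII pair (0.29, range over pairs left out -1.04 to 0.29) and Tspan6 without the early 2-cell pair (0.29, range -1.28 to 0.29). The median of the ribosomal protein list was 0.31 without the early 2-cell pair and -0.24 without the MII pair. Of 468 list medians 22 moved by more than the spread between the 3 pairs. The arrays were paired by stage through the stage term of each fit, and the labels give no replicate numbers to pair by. With 1 array a stage and side, array effects and superovulation cannot be told apart within a pair.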

Other observations

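Antioxidant and glycolytic genes held members on both sides. List counts at an unadjusted p under 0.05 in this paragraph stand beside 5.16% higher and 4.86% lower among all tested rows, and 8.13% and 9.3% among those above the level of silent genes. Glrx (glutaredoxin) was higher by 0.64, 1.41 and 1.19 in the MII, 1-cell and early 2-cell pair, whereas Nqo1, a quinone reductase, was lower by -0.61, -0.46 and -0.77, and 3 of 30 antioxidant genes were higher and 2 lower. Of 20 genes of glucose transport and glycolysis 2 were higher and 1 lower, with Pgam1 (phosphoglycerate mutase) at 10.63, 8.69 and 10.60 on the superovulated arrays, against 9.33, 7.84 and 9.82 on the natural-cycle arrays. In the autophagy list Gabarapl2, an ATG8 protein, differed by 0.15, -1.85 and -1.80, and 2 of 27 genes were higher and 3 lower. In the mTORC1 list 5 of 35 were higher and 1 lower, Rptor, the scaffold of mTORC1, by 0.47, 1.10 and 0.56. In the other lists 1 of 15 oocyte transcription factors was higher and 0 lower, of 17 genes of maternal mRNA storage 2 were higher and 1 lower, of 18 mRNA decay genes 1 and 1 (medians -0.25, -0.47 and -0.07), of 25 genes of MII arrest and meiotic exit 3 and 2, of 18 early zygotic regulators 0 and 2, of 23 cholesterol genes 1 and 1, and of 11 housekeeping genes 0 and 1. None passed the adjustment.

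Cyp2j12 was lower in the 3 early pairs (mean -1.31) and higher in 4 of the 5 later ones (mean 0.30), and its early minus later difference of -1.61 ± 0.25 had an adjusted p of 0.636 in limma, the lowest value in that test and one shared with other rows. H2az1, a histone variant, differed by 2.26 at MII, 0.16 at 1-cell and -0.58 at early 2-cell.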
